A study of Homo sapiens with 3 samples.

Results

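Ubiquitin-conjugating enzymes (E2s) were examined in the RNA-seq of H660 cells, an established human neuroendocrine prostate cancer line, after treatment with JG231, an allosteric inhibitor of the chaperone HSP70. The E2 genes were taken as the rows whose symbol was UBE2 followed by 1 letter and optional digits, or by 1 more letter with digits, leaving out hyphenated symbols and annotated pseudogenes. This gave 35 genes among the 58735 listed. Parental H660 cells were treated for 24 h with the vehicle DMSO, with 2.5 μM JG231 or with 5 μM JG231, and 1 library was sequenced for each condition, so no replicate spread or p-value could be computed. The labels call the cells parental and name no genetic change, and what the 3 libraries share besides the line is the treatment time. The values are FPKM, fragment counts scaled by gene length and by library size.

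Ubiquitin is passed from an E1 activating enzyme to the catalytic cysteine of an E2, and from there to a substrate chosen by an E3 ligase. The E2 often decides which lysine of ubiquitin links the chain. Chains through K48 and K11 are known for sending proteins to the proteasome, chains through K63 for signalling and repair, and several E2s carry NEDD8 or ISG15 in place of ubiquitin. STUB1, the E3 that cooperates with HSP70, is known to work with the UBE2D enzymes and with the UBE2N and UBE2V1 pair, which is why the supply of E2 transcripts under HSP70 inhibition was looked at here.

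Sequenced depth was read from the steps in the FPKM values and was lowest in DMSO and highest at 5 μM, at 16.1 and 24.1 M fragments. Of the neuroendocrine markers, SYP was at 17.7, 13.0 and 14.8 FPKM in DMSO, 2.5 μM and 5 μM JG231, CHGA at 46.0, 15.0 and 12.7, ENO2 at 37.0, 30.8 and 27.8, NCAM1 at 6.16, 4.82 and 3.40 and INSM1 at 13.4, 16.3 and 10.5. All of these were lowest at 5 μM except SYP, which was lowest at 2.5 μM. Of the prostate luminal markers, KLK2 was listed at 0 in every library, KLK3 was at 0.134 FPKM or less and TMPRSS2 at 0.315 FPKM or less. The records call the cells prostatic adenocarcinoma, and these luminal transcripts were at or near 0. The part of the marker changes in the E2 values was not tested. Among markers of other cells, PTPRC and PECAM1 were listed at 0 in the 3 libraries, and COL1A1 was between 0.745 and 1.27 FPKM. Mitochondrial and small RNA genes made up 40.5% of the FPKM sum in DMSO, 24.6% at 2.5 μM and 29.2% at 5 μM. This share moves the values of all other genes, and its part in the E2 changes was not tested beyond the rescaling given below.

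Upstream windows are shown for the E2s at the ends of the range at 5 μM among those with a promoter sequence, chosen after their values were seen. UBE2F, UBE2E3, UBE2M and UBE2S had the 4 largest increases, and UBE2G2 the largest decrease. Each is the 250 bases before the annotated start in RefSeq on GRCh38.p14, 5′ to 3′ on the strand of the gene, with capitals marking the motifs searched on both strands. These are chr19:55407789-55408038 (minus strand) for UBE2S, chr19:58558612-58558861 (minus strand) for UBE2M, chr2:237966764-237967013 (plus strand) for UBE2F, chr2:180980110-180980359 and chr2:180980355-180980604 (plus strand) for 2 starts of UBE2E3, and chr21:44801821-44802070 (minus strand) for UBE2G2.
UBE2S: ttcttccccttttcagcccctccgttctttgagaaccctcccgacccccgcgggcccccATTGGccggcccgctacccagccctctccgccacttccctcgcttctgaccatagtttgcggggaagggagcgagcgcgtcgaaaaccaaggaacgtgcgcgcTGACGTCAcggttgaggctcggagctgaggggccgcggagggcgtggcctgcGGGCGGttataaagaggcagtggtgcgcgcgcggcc
UBE2M: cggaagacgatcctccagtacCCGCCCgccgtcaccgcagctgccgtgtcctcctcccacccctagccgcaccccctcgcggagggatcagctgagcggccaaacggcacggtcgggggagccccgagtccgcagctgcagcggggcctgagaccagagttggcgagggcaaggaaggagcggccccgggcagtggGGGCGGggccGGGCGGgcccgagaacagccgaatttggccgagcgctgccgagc
UBE2F: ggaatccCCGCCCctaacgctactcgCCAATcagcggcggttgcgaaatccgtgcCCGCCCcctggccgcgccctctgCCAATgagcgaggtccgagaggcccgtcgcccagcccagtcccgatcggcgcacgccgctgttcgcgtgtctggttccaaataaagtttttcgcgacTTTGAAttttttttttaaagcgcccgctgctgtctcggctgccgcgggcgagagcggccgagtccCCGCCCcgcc
UBE2E3, first start: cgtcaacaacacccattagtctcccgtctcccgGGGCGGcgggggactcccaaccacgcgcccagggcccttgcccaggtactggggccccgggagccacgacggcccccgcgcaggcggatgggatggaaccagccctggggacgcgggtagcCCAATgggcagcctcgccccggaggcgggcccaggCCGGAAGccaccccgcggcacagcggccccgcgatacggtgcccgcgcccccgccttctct
UBE2E3, second start: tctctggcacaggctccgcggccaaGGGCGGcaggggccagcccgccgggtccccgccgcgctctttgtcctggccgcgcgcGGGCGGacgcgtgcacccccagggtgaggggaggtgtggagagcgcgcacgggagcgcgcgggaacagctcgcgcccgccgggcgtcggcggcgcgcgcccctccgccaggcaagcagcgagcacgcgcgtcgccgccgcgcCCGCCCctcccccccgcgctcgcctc
UBE2G2: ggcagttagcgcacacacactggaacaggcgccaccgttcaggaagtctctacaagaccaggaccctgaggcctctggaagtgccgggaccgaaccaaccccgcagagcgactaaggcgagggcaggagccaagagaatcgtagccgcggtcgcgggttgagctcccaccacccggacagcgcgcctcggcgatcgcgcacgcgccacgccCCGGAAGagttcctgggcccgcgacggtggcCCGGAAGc
In the UBE2S window the capitals mark a CCAAT box read on the other strand, 1 CRE-like TGACGTCA and 1 GC box. The UBE2M window holds GC boxes only, the UBE2F window CCAAT boxes, GC boxes and a TTTGAA, and the UBE2G2 window 2 copies of the ETS core CCGGAAG. The first UBE2E3 window holds a GC box, a CCAAT box and a CCGGAAG, and the second GC boxes only. CCGGAAG was thus in windows of raised and lowered genes, and windows of UBE2J2, UBE2N and UBE2V1 held it as well.

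Of the 35 E2 genes, 27 had an entry in the promoter table, in 39 windows that overlap in part because some genes have several starts. Those without one included UBE2B, UBE2C, UBE2H, UBE2L5, UBE2Q1, UBE2V2 and UBE2W. The GC box GGGCGG was found in 30 of the 39 windows and in 42.6% of all 35116 windows of the same length. Base composition differed as well, with a median GC content of 72.0% in the E2 windows and 58.0% in all windows. CCAAT occurred in 11 of the 39 windows (32.0% of all), CCGGAAG in 5 (8.52%) and the antioxidant response core TGANNNNGC in 15 (35.2%). TTTGAA, the cell cycle homology region, occurred in 3 (13.3%). TGACGTCA was found only in UBE2S among these windows (1.646% of all), and an NRF1-like palindrome only in UBE2K (1.03%). The ATF4 composite core TGATGNAA (3.14% of all), the ER stress element (0.0740%), the heat shock element (0.441%) and the E-box CACGTG (6.34%) were found in 0 of the 39. A match describes letters in the window and not a bound site.

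Most measured E2 transcripts were higher in both JG231 libraries than in DMSO. Changes are given as log2((FPKM with JG231 + 0.1)/(FPKM in DMSO + 0.1)), a scale that understates the change of low genes, and a gene was called higher or lower when it passed 0.25 on this scale and had an FPKM over 1 in either library. Of the 35 genes, 32 passed this expression filter at each dose. At 5 μM 23 of 32 were called higher and 1 was called lower, while 36.5% of the 15765 genes tested were called higher and 45.1% lower. At 2.5 μM 24 were called higher and 2 lower, against 36.4% and 43.4% of 15746 genes. The median change of the E2 genes was 0.58 at 5 μM and 0.41 at 2.5 μM, and that of all genes tested was -0.11 and -0.08. Over a change of 1, 7 E2 genes were higher at 5 μM and 6 at 2.5 μM, against 14.7% and 12.9% of all genes. When only genes averaging 5 FPKM or more were kept, 48.8% were called higher at 5 μM and 48% at 2.5 μM, beside 21 and 23 of 29 E2 genes. Both comparisons share the DMSO library, so 21 genes called higher at both doses are not a repeat of an independent result. The share of all genes called higher at both doses was not computed, so this count has no background beside it.

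The size of these changes was set against the spread of a single gene, a robust SD of the log2 difference between both JG231 libraries among the 500 genes of most similar mean level. For the 32 genes this spread ran from 0.20 to 1.17 and was widest for UBE2V1. It includes any effect of dose and is no replicate error. By this measure 22 changes at 5 μM and 23 at 2.5 μM were larger than the spread, against 67.4% and 63.4% of the 15164 genes that passed the filter at both doses. Changes larger than 2 spreads numbered 18 and 13, against 42.5% and 37.3%. At 5 μM the share of E2 genes beyond 1 spread was near that of all genes. The smallest of the 32 stood on 75 fragments and the largest on 10503, so counting error was small for most. Intervals given from fragments are exact binomial 95% intervals that cover counting error only, since amplified copies of 1 molecule count as separate fragments.

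When the libraries were rescaled to a common FPKM sum without mitochondrial and small RNA genes, the median of all genes moved by -0.40 at 5 μM and by -0.30 at 2.5 μM. Under this rescaling 15 of 32 E2 genes were called higher and 4 lower at 5 μM, with 23.1% and 59.6% of all genes. At 2.5 μM the counts were 13 and 5, with 24.8% and 55.6% of all genes. The E2 median was above that of all genes under both scalings, at 0.21 and 0.12 after rescaling, and the number called higher depended on the scale. The factor lowers a gene by 0.29 at 2.5 μM and by 0.38 at 5 μM, slightly less for genes of low level. At 5 μM 8 genes lost the call higher, UBE2A, UBE2D4, UBE2E1, UBE2G1, UBE2L3, UBE2L6, UBE2Q2 and UBE2R2. At 2.5 μM 11 genes lost it, UBE2D1, UBE2E1, UBE2G1, UBE2J2, UBE2K, UBE2L3, UBE2L6, UBE2Q1, UBE2Q2, UBE2R2 and UBE2T. UBE2V1, UBE2V2 and UBE2W joined UBE2G2 as lower at both doses, and UBE2D4 was lower at 2.5 μM. Values after rescaling below refer to this scale.

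**Figure D1:**
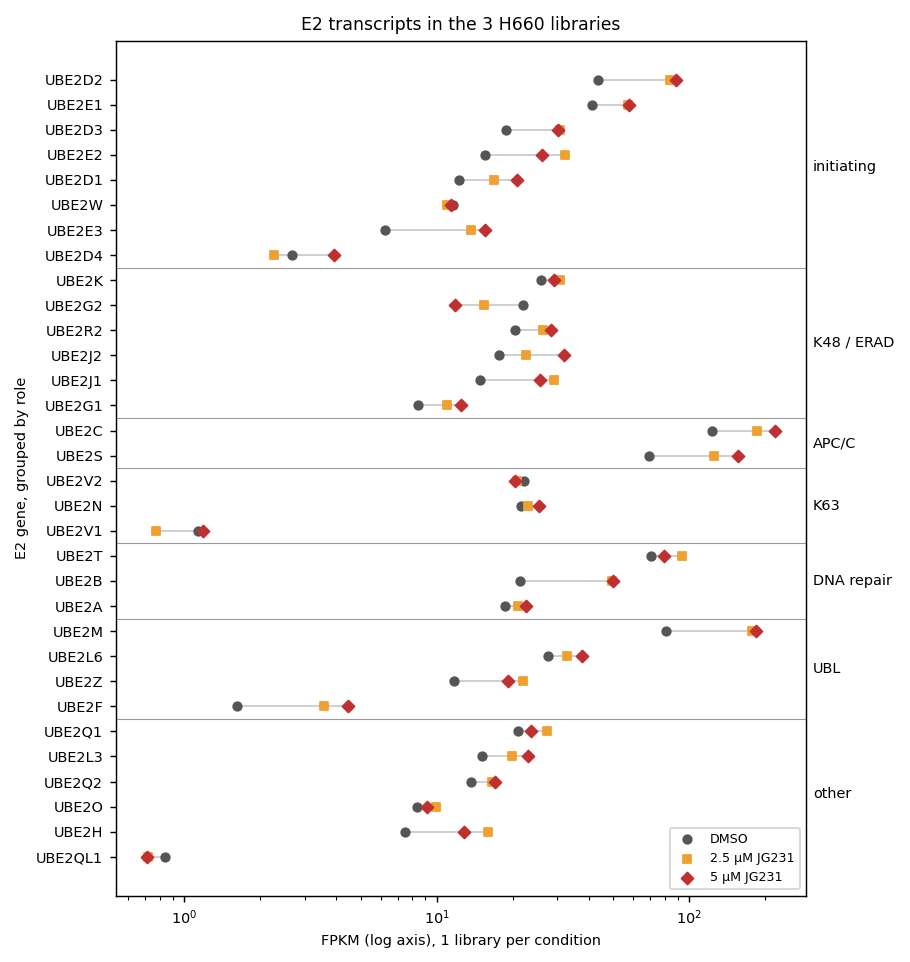
FPKM of E2 genes above 0, on a log axis, with 1 point per library (circles DMSO, squares 2.5 μM, diamonds 5 μM JG231) and genes grouped by role. UBE2C, UBE2M, UBE2T and UBE2S have the highest values in DMSO, and the JG231 points lie to the right of DMSO for most genes, with UBE2G2 the clearest exception.

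**Figure D2:**
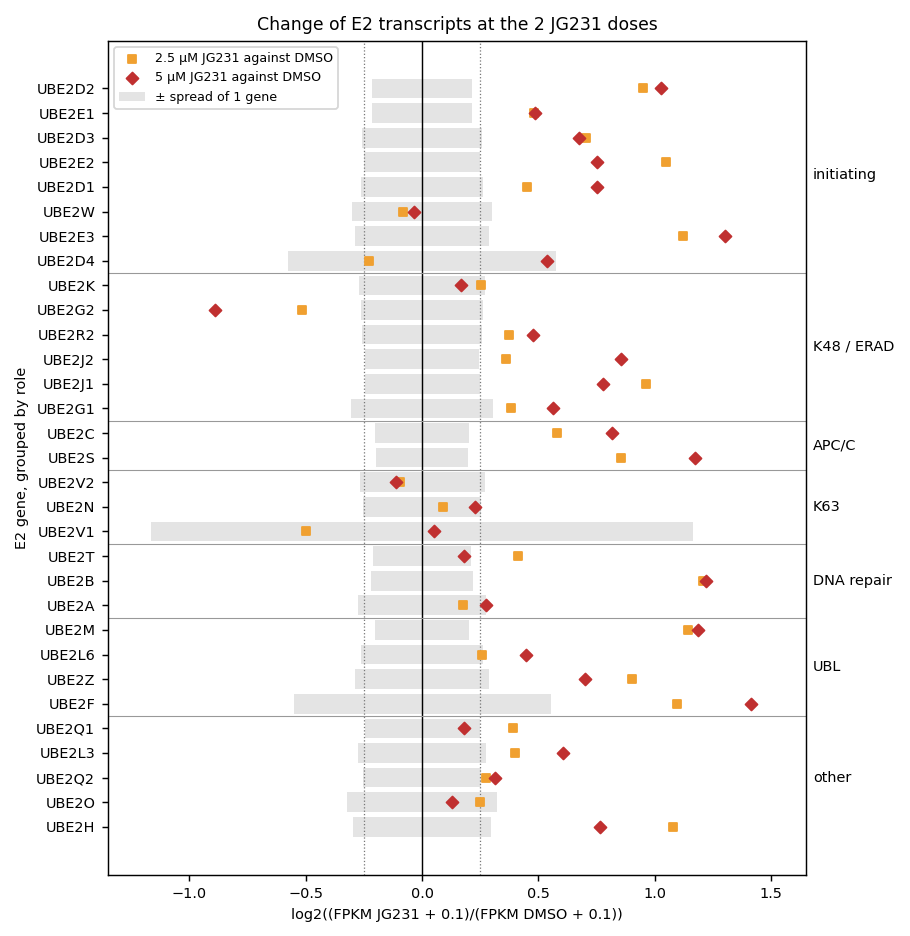
Log2 change of E2 genes that passed the filter, at 2.5 μM (squares) and 5 μM (diamonds) JG231 against DMSO. Grey bars show the spread of a single gene on either side of 0 and dotted lines the threshold of 0.25; the largest change at 5 μM is 1.41 for UBE2F and the lowest is -0.89 for UBE2G2.

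The E2s that start ubiquitin chains for many E3s were mostly higher, 7 of 8 at 5 μM and 6 of 8 at 2.5 μM, with 36.5% and 36.4% of all genes called higher. After rescaling, UBE2D4 (0.17) and UBE2E1 (0.11) fell under the threshold at 5 μM, and UBE2D1 (0.16) and UBE2E1 (0.19) at 2.5 μM, where UBE2D4 (-0.51) and UBE2W (-0.37) became lower. UBE2D2 (ENSG00000131508, chr5:139526431-139628434 on GRCh38), a broadly used partner of RING and U-box ligases, was measured at 43.4 FPKM without JG231, 83.8 with 2.5 μM and 88.5 with 5 μM. Its log2 changes were 0.95 and 1.03, with a spread of 0.21 and an interval of 0.97 to 1.09 at 5 μM. Its close relative UBE2D3 had 18.8, 30.8 and 30.2 FPKM, changes of 0.70 and 0.68. UBE2D1, the third of this group, had 12.3, 16.8 and 20.7 FPKM, and its changes of 0.45 and 0.75 put the 5 μM library highest. UBE2D4, which is expressed far lower, had 2.68, 2.27 and 3.92 FPKM, and its changes of -0.23 and 0.53 had opposite signs within a spread of 0.58. Exons of POLR2J4 and ENSG00000273432 on the other strand cover 15.5% of its exon bases.

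The UBE2E enzymes, relatives of the UBE2D group with an added N-terminal stretch, were higher at both doses. UBE2E3 (ENSG00000170035, chr2:180967248-181076585) was measured at 6.21 FPKM without JG231, 13.6 with 2.5 μM and 15.5 with 5 μM, changes of 1.12 and 1.30 against a spread of 0.29. For UBE2E2 the values were 15.5, 32.2 and 26.2 FPKM, so that the 2.5 μM library was highest and the changes were 1.05 and 0.75. UBE2E1 had 41.0, 57.4 and 57.5 FPKM, similar changes of 0.48 and 0.49, with 33.8% of its exon bases also covered by exons of NKIRAS1 on the other strand. Neither change of UBE2E1 passed the threshold with the length trend removed, at 0.24 and 0.14, or after rescaling, at 0.19 and 0.11. UBE2W, which adds ubiquitin to the N terminus of substrates, was within its spread of 0.30 in the reported scaling, at 11.6, 11.0 and 11.4 FPKM. Its direction depended on the scale, at -0.37 and -0.41 after rescaling and at 0.17 and 0.43 with the length trend removed.

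E2s that build K48 chains or act in ER-associated degradation (ERAD) held UBE2G2, in the reported scaling the 1 gene called lower at both doses. UBE2G2 (ENSG00000184787, chr21:44768580-44801826), an ERAD enzyme, was measured at 22 FPKM without JG231, 15.3 with 2.5 μM and 11.8 with 5 μM. Its log2 changes were -0.52 and -0.89, beside a spread of 0.26, on 2547, 2248 and 2048 fragments. The interval from fragments was -0.98 to -0.81 at 5 μM.

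The tail-anchored E2s of the ER membrane had the opposite sign. UBE2J1 (ENSG00000198833, chr6:89326625-89352722), which works with SYVN1, was measured at 14.9 FPKM without JG231, 29.1 with 2.5 μM and 25.6 with 5 μM, changes of 0.96 and 0.78. UBE2J2, its relative, had 17.6, 22.6 and 31.9 FPKM and changes of 0.36 and 0.86. At 5 μM the 3 ERAD E2s therefore spanned the range from -0.89 to 0.86. UBE2G1 had 8.41, 11.0 and 12.5 FPKM, changes of 0.38 and 0.56. UBE2R2, a partner of cullin-RING ligases, had 20.4, 26.4 and 28.4 FPKM, changes of 0.37 and 0.48. After rescaling neither passed the threshold, with UBE2G1 at 0.092 and 0.19 and UBE2R2 at 0.083 and 0.10, and UBE2J2 was at 0.072 at 2.5 μM. UBE2K, which builds K48 chains on its own, was called higher only at 2.5 μM, at 25.8, 30.8 and 29.0 FPKM and with both changes, 0.25 and 0.17, within its spread of 0.27. After rescaling these were -0.037 and -0.21, and with the length trend removed 0.36 and 0.39.

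Both E2s of the anaphase-promoting complex (APC/C), the mitotic ligase that uses K11 chains, were higher at both doses and highest at 5 μM. UBE2C (ENSG00000175063, chr20:45812576-45816957), which starts these chains, was the most abundant E2 in FPKM and had 123 in DMSO, 185 at 2.5 μM and 217 at 5 μM, changes of 0.58 and 0.82 against a spread of 0.20. UBE2S (ENSG00000108106, chr19:55399745-55407788), which lengthens them, had 69.0, 125 and 156 FPKM and changes of 0.86 and 1.17. The canonical transcript of UBE2C is short, at 777 bases, and with the length trend of all genes removed its changes were 0.14 and 0.18, whereas those of UBE2S, at 2559 bases, were 0.72 and 0.996. Transcripts of this kind follow the cell cycle, and in bulk RNA more cells in a phase and more RNA per cell cannot be told apart. UBE2S shares 10.04% of its stretches of 100 bases with its pseudogenes UBE2SP1 and UBE2SP2, and some fragments there may not be assignable to 1 gene.

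The E2s of K63 chains had median changes of -0.09 at 2.5 μM and 0.05 at 5 μM. UBE2N (ENSG00000177889, chr12:93405673-93441947), the enzyme that makes K63 chains, was measured at 21.6 FPKM without JG231, 23.0 with 2.5 μM and 25.3 with 5 μM, and neither change, 0.09 or 0.23, passed the threshold. Exons of NUDT4 on the other strand cover 41.6% of its exon bases. Its partner UBE2V2, a variant without a catalytic cysteine, had 22.1, 20.7 and 20.4 FPKM, changes of -0.09 and -0.11. The other partner, UBE2V1, was listed at 1.14, 0.774 and 1.18 FPKM and was called lower at 2.5 μM with a change of -0.50, inside a spread of 1.17. Of its 100-base stretches 97.9% also occur in the readthrough gene PEDS1-UBE2V1, which was listed at 0 in the 3 libraries. The level of UBE2V1 is therefore uncertain. At 5 μM 0 of these 3 genes passed the threshold, with 36.5% of all genes called higher and 45.1% lower. After rescaling UBE2V2 (-0.38 and -0.49) and UBE2V1 (-0.75 and -0.29) were called lower at both doses, and with the length trend removed UBE2N was called higher at 5 μM, at 0.42.

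Of the E2s of DNA repair, UBE2B differed from its near twin UBE2A. UBE2B (ENSG00000119048, chr5:134371184-134392108), a RAD6 enzyme that works with RAD18, was measured at 21.3 FPKM without JG231, 49.3 with 2.5 μM and 49.7 with 5 μM, changes of 1.21 and 1.22 against a spread of 0.22. UBE2A, the other RAD6 enzyme, had 18.5, 20.9 and 22.4 FPKM and changes of 0.17 and 0.27, the latter past the threshold, equal to its spread, and -0.10 after rescaling. No stretch of 100 bases was shared between them or with another annotated gene, and both had similar levels in DMSO. Exons of NKRF and STEEP1 on the other strand cover 17.8% of the exon bases of UBE2A, and 0% of those of UBE2B are covered in this way. UBE2T, the E2 of the Fanconi anaemia pathway, had 70.2, 93.5 and 79.5 FPKM and was called higher at 2.5 μM only, with changes of 0.41 and 0.18. Its transcript has 878 bases, and its values became -0.01 and -0.42 once the length trend was removed.

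Among the E2s for ubiquitin-like proteins, UBE2M, UBE2F, UBE2Z and UBE2L6 were each called higher at both doses, although UBE2L6 turned to -0.033 at 2.5 μM after rescaling without mitochondrial and small RNA genes. UBE2M (ENSG00000130725, chr19:58555712-58558954), the NEDD8 E2 of most cullins, was measured at 80.5 FPKM without JG231, 178 with 2.5 μM and 183 with 5 μM, changes of 1.14 and 1.18 against a spread of 0.20. Its transcript has 1159 bases, and with the length trend removed these were 0.78 and 0.67. UBE2F (ENSG00000184182, chr2:237966827-238042782), the second NEDD8 E2, had 1.61, 3.57 and 4.46 FPKM and changes of 1.10 and 1.41, the largest at 5 μM, on 110, 308 and 455 fragments. Of its 100-base stretches 22.4% also occur in the readthrough gene UBE2F-SCLY. Both NEDD8 enzymes were higher, from DMSO levels far apart. UBE2Z, which takes ubiquitin or FAT10 from the E1 UBA6, had 11.7, 22 and 19.1 FPKM, changes of 0.90 and 0.70. UBE2L6, the ISG15 E2, had the smallest changes of these, at 27.4, 32.8 and 37.5 FPKM and 0.26 and 0.45, and these values became -0.09 and -0.05 with the length trend removed.

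The remaining E2s have more separate roles. UBE2H (ENSG00000186591, chr7:129830732-129952960), the E2 of the CTLH ligase, was measured at 7.47 FPKM without JG231, 15.9 with 2.5 μM and 12.8 with 5 μM, changes of 1.08 and 0.77 against a spread of 0.30. Its canonical transcript is among the longer ones, at 5162 bases, a range in which the median gene was below 0. UBE2L3, which serves HECT and RBR ligases, had 15.1, 19.9 and 23.0 FPKM and changes of 0.40 and 0.61. UBE2Q2 had 13.7, 16.6 and 17.1 FPKM, changes of 0.27 and 0.31, and UBE2Q1 had 20.9, 27.4 and 23.7 FPKM, changes of 0.39 and 0.18. After rescaling UBE2Q2 turned to -0.015 and -0.064, UBE2Q1 was at 0.10 and -0.20, and UBE2L3 was at 0.11 and 0.23, so that 0 of these 3 were called. UBE2O, a large enzyme with E2 and E3 activity, was within its spread at 8.37, 9.96 and 9.16 FPKM, and was at 0.37 at both doses with the length trend removed.

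The other 3 E2 genes did not pass the filter on expression. UBE2QL1 was listed at 0.835, 0.716 and 0.712 FPKM. UBE2U and UBE2L5 were listed at 0 in every library, and 3 fragments, the limit that a count of 0 allows, would be 0.101 FPKM for UBE2U and 0.0562 FPKM for UBE2L5 in DMSO. Expression of UBE2U and UBE2L5 below such values was not detectable at this depth. UBE2QL1 was detected in every library, on 79, 86 and 101 fragments.

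Between the JG231 doses, most E2 genes differed little. With the same filter and threshold, 6 of 32 were higher at 5 μM than at 2.5 μM and 3 were lower, against 26.8% and 30.1% of 14197 genes. The 2.5 μM value lay between DMSO and 5 μM for 20 of the 32. The 5 μM library was highest for 20 genes, the 2.5 μM library for 9 and DMSO for 3, namely UBE2G2, UBE2V2 and UBE2W. The share of all genes in each of these orders was not computed, so these counts have no background to be read against.

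Transcript length moved with the change in these libraries, for E2 genes as for others. Across the 32 E2 genes Spearman's rho between log2 change and canonical transcript length was -0.43 for 5 μM and -0.36 for 2.5 μM. Over 11200 protein-coding genes it was -0.37 and -0.26, and genes of the same library are not independent points. The 18 E2 genes with transcripts under 3000 bases had a median change of 0.78 at 5 μM, beside 0.34 for all protein-coding genes of that range. The 14 of 3000 bases or over had a median of 0.35, beside -0.22. With the length trend of all protein-coding genes removed, 22 E2 genes were higher and 2 lower at 5 μM, with 33% and 46.3% of all genes. At 2.5 μM the counts were 19 and 2, with 32.9% and 45.7%. Removal of the trend took the call higher from UBE2A, UBE2C, UBE2E1, UBE2L6 and UBE2Q2 at 5 μM, and from UBE2C, UBE2E1, UBE2J2, UBE2L6, UBE2Q2 and UBE2T at 2.5 μM. It gave that call to UBE2K, UBE2N, UBE2O and UBE2W at 5 μM and to UBE2O at 2.5 μM, and left the median of the group at 0.60 at 5 μM and 0.34 at 2.5 μM.

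**Figure D3:**
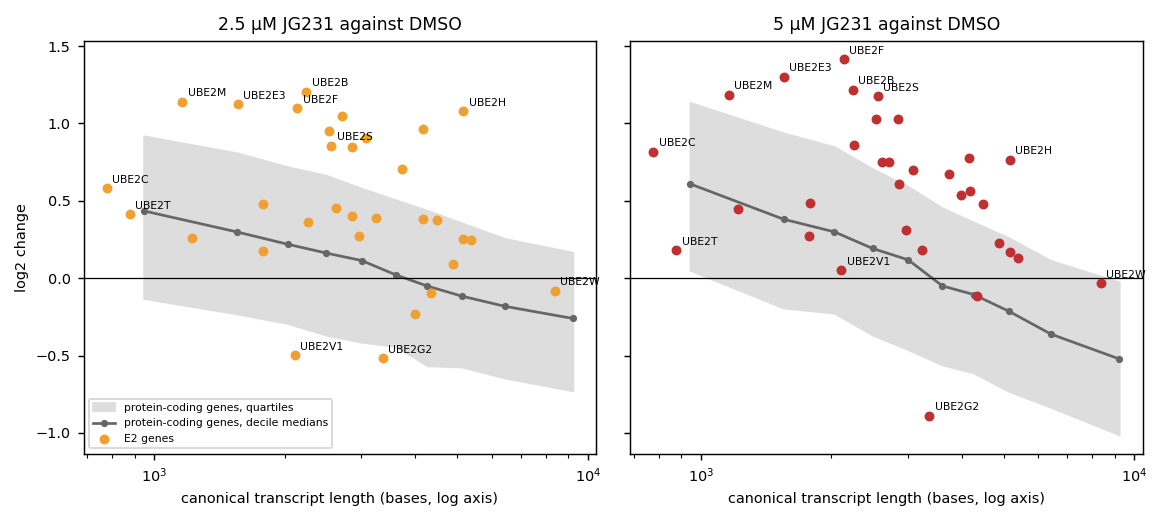
Log2 change against the length of the canonical transcript (log axis) for the 32 E2 genes (points) at 2.5 μM and 5 μM JG231, with decile medians (line) and quartiles (grey band) of 11200 protein-coding genes. Most E2 points lie above the line at both doses, and UBE2G2 lies below it.

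The other genes of the ubiquitin cascade were taken as lists written from textbook roles. Their counts stand beside 36.5% of all genes called higher and 45.1% lower at 5 μM, and 36.4% and 43.4% at 2.5 μM, and they depend on the scale as those of the E2 genes do. Of the E1 enzymes, 3 of 9 were called higher and 1 lower at 5 μM, and 4 and 2 at 2.5 μM, with medians of 0.03 and -0.00055. After rescaling without mitochondrial and small RNA genes, 2 were higher and 5 lower at each dose. SAE1, a subunit of the SUMO E1, was measured at 23.4 FPKM without JG231, 65.3 with 2.5 μM and 65.9 with 5 μM, changes of 1.477 and 1.49, and ATG7, the E1 of autophagy, changes of 1.13 and 1.23. UBA6, the E1 that charges UBE2Z, had 6.77, 5.64 and 4.30 FPKM and changes of -0.26 and -0.64. Its transcript has 9540 bases, and with the length trend removed these were 0.027 and -0.12, under the threshold. UBA7, the ISG15 E1, had changes of -0.18 and -0.15, which did not pass the threshold but were -0.47 and -0.53 after rescaling. UBA1, the main ubiquitin E1, had 47.8, 42.6 and 52.9 FPKM and no change past 0.25, with -0.46 at 2.5 μM after rescaling.

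Of 8 E2 enzymes and variants without a UBE2 symbol, 4 were called higher and 3 lower at 5 μM, and 5 and 2 at 2.5 μM. Their median of 0.29 at 5 μM turned to -0.084 after rescaling without mitochondrial and small RNA genes, with 3 higher and 4 lower. At 2.5 μM the rescaling took the call higher from 3 of them, AKTIP, ATG3 and UFC1, and gave the call lower to 1, ATG10. With the length trend removed 3 were higher and 3 lower at 5 μM, and 3 and 1 at 2.5 μM. CDC34, the cullin-RING E2 closest to UBE2R2, was measured at 38.4 FPKM without JG231, 112 with 2.5 μM and 120 with 5 μM, changes of 1.54 and 1.64 that exceeded those of every UBE2 gene. TSG101, a variant without activity that sorts endosomal cargo, had changes of 0.70 and 0.51. With the length trend removed these were 0.40 and 0.097, and after rescaling the value at 5 μM was 0.13, so the call at 5 μM was lost on both. BIRC6 and UEVLD had changes of -0.32 and -0.70, and of -0.44 and -0.71. The transcript of BIRC6 has 15687 bases, and its values were 0.10 and 0.0077 with the length trend removed.

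Among 13 precursors of ubiquitin and ubiquitin-like proteins, 12 passed the filter, and 9 were called higher and 0 lower at 5 μM. At 2.5 μM 6 were higher and 3 lower. Rescaling gave 5 higher and 3 lower at each dose, and removal of the length trend 6 and 2 at 5 μM and 5 and 3 at 2.5 μM. ISG15, the modifier that UBE2L6 carries, had 37.0, 81.3 and 96.5 FPKM and changes of 1.13 and 1.38, and FAU, the precursor of a ribosomal protein, 0.88 and 1.17. Both transcripts are short, at 637 and 506 bases, and with the length trend removed ISG15 was at 0.66 and 0.69 and FAU at 0.37 and 0.42. UBB, a ubiquitin gene, had 246, 157 and 232 FPKM, changes of -0.65 and -0.08. NEDD8 had 14.3, 10.1 and 13.6 FPKM and changes of -0.50 and -0.08, so the substrate of UBE2M and UBE2F was not called higher at either dose. At 5 μM UBB and NEDD8 became lower after rescaling, both at -0.46, and with the length trend removed, at -0.66 and -0.78.

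The E3 ligases and partners that work with E2s were mixed, with 18 of 43 called higher and 12 lower at 5 μM, 19 and 10 at 2.5 μM, and medians of 0.11 and 0.06. After rescaling 8 were higher and 23 lower at 5 μM, and 7 and 20 at 2.5 μM, with medians of -0.27 and -0.23. Removal of the length trend gave 23 higher and 8 lower at 5 μM, and 17 and 9 at 2.5 μM. AUP1, the protein that recruits UBE2G2 to lipid droplets and the ER, had 41.7, 108 and 110 FPKM and changes of 1.37 and 1.40, opposite in sign to UBE2G2. RNF7, the RING protein that works with UBE2F on CUL5, had 12.9, 30.4 and 26.9 FPKM, changes of 1.22 and 1.05. HUWE1, a large HECT ligase, had 17.3, 8.07 and 6.45 FPKM, changes of -1.09 and -1.41, and UBR1 changes of -0.64 and -0.72 within a spread of 1.18. The HUWE1 transcript has 14731 bases, and with the length trend removed HUWE1 was at -0.69 and -0.72 and UBR1 at -0.41 and -0.30. STUB1 had 12.7, 12.8 and 16.5 FPKM, changes of 0.01 and 0.37, and with the length trend removed these were -0.32 and -0.086 and after rescaling -0.28 and -0.0029.

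Further partners were chosen after their values were seen. MARCHF6, an E3 of the ER membrane, had changes of -0.57 and -0.997. SYVN1, the partner of UBE2J1, had 0.30 and 0.11. FANCL, the E3 of UBE2T, had 23.8, 12.5 and 16.8 FPKM, changes of -0.92 and -0.50. Its summed exons hold 37977 bases, beside 1658 in its canonical transcript, the length used for the trend. How much of its value came from the canonical transcript was not tested. Of the NEDD8 E1 subunits, UBA3 had -0.00055 and 0.03, and NAE1 had -0.54, called lower, and -0.03. RBX1, the RING protein that works with UBE2M, had changes of 0.53 and 0.65. With the length trend removed RBX1 was under the threshold, at 0.17 and 0.14, as was SYVN1, at 0.22 and 0.035. After rescaling SYVN1 turned to 0.012 and -0.27, the latter called lower. MARCHF6 was at -0.28 and -0.47 and FANCL at -1.19 and -0.88 once the length trend was removed. NAE1 remained lower at 2.5 μM with the length trend removed (-0.78) and after rescaling (-0.83). At 5 μM NAE1 was lower with the length trend removed (-0.37) and after rescaling (-0.41). UBA3 was called lower after rescaling at both doses, at -0.29 and -0.35.

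For the APC/C, 9 of 16 subunits and activators were called higher and 2 lower at 5 μM, and 11 and 4 at 2.5 μM, with medians of 0.41 and 0.44. After rescaling the counts were 6 and 5 at 5 μM, and 7 and 4 at 2.5 μM. With the length trend removed 7 were higher and 5 lower at 5 μM, and 7 and 4 at 2.5 μM, with medians of 0.084 and 0.19. CDC20, the mitotic activator, was measured at 75 FPKM without JG231, 136 with 2.5 μM and 165 with 5 μM, changes of 0.85 and 1.14 close to those of UBE2S. ANAPC10, a subunit for substrate binding, had 0.89 and 0.91, while ANAPC4 had -0.97 and -0.84 and ANAPC5 -0.47 and -0.56. ANAPC10 was at 0.58 and 0.48, and CDC20 at 0.58 and 0.76, with the length trend removed.

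**Figure D4:**
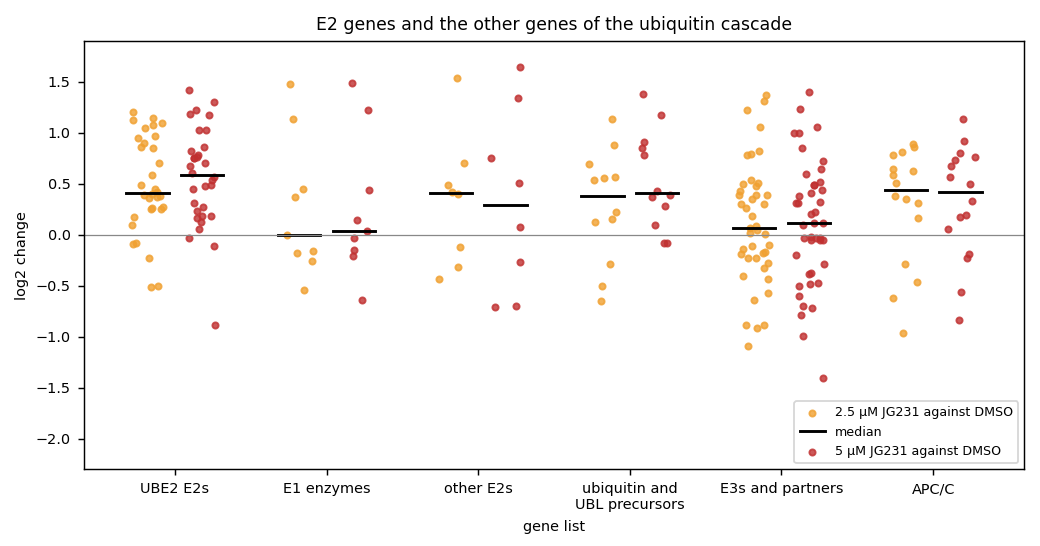
Log2 change at 2.5 μM and 5 μM JG231 against DMSO for the 32 UBE2 genes and the other lists of the ubiquitin cascade, 1 point per gene that passed the filter, with horizontal spacing for legibility and bars at the medians. The UBE2 medians are 0.41 and 0.58, and those of the E1 enzymes are -0.00055 and 0.03.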

How the data were processed

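RNA-seq of H660 cells was analysed in 3 libraries, DMSO, 2.5 μM and 5 μM JG231, 1 per condition. The authors deposited FPKM per gene. The paper's methods name HISAT and StringTie, and the submitters' processing notes name HISAT2, featureCounts and GRCh38; the annotation release is not given in the sources used here. FPKM multiplied by the summed exon length of GENCODE release 44 fell within 0.1 of a whole number of fragments for 86.7% to 90.5% of single-transcript genes under 50 fragments, and for 55.5% to 57.9% of genes with several transcripts. Fragments in the text use that length and are approximate. The labels describe stranded libraries, and no source says if fragments were counted by strand, which makes genes with overlapping antisense exons uncertain. Identifiers matched GENCODE for 58207 of 58735 genes.

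The pseudocount was 0.1, the threshold 0.25 and the filter an FPKM over 1 in either library; the pseudocount, the threshold and the level of 1 are those of the study's methods, and applying that level to either library is a reading of them. Genes at 0 in 1 library were kept where the other was over 1. The lowess fraction for the length trend was 0.3. The E2 genes and the lists were chosen with earlier results of these data known, and so were the length of 3000 bases and the motifs. The E2 genes are named, except 1 that is not reported here and enters the counts only, as do a few markers and partners; of each other list, the 2 largest increases and 2 largest decreases with the same sign at both doses and a mean FPKM of at least 1, plus STUB1 and CDC34, ranked by the smaller change. UBA1 and the partners so marked lie outside that rule. Alternatives were pseudocounts, filters, a threshold of 1, rescalings, centring and the length trend. The code was tested on simulated data. Tools were matplotlib 3.10.9, statsmodels 0.14.6, Python 3.11.15, pandas 2.3.3, scipy 1.17.1 and numpy 2.4.6.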

Additional observations from a re-analysis of the deposited data

How the results depend on the processing

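With 1 library per condition, no replicate could be left out. No paired analysis was possible because each condition has a single library. The median E2 change stayed above 0 at both doses under every alternative tried. It moved most when mitochondrial and small RNA genes were left out of the scaling, to 0.21 at 5 μM and 0.12 at 2.5 μM. With a threshold of 1, 7 genes were higher at 5 μM and 6 at 2.5 μM, with 14.7% and 12.9% of all genes. Under the other alternatives the number of E2 genes changed remained between 18 and 28 at both doses. Scaling without mitochondrial and small RNA genes turned 8 of 32 single values at 5 μM and 6 at 2.5 μM, and removal of the length trend 6 and 4. Among values that passed 0.25 in the reported scaling, the former turned UBE2A (-0.10) and UBE2Q2 (-0.064) at 5 μM, of UBE2K (-0.037), UBE2L6 (-0.033) and UBE2Q2 (-0.015) at 2.5 μM, and of the median of E2 enzymes without a UBE2 symbol at 5 μM (-0.084). Among such values the length trend turned UBE2A (-0.073) and UBE2L6 (-0.048) at 5 μM, and UBE2L6 (-0.094) and UBE2T (-0.0092) at 2.5 μM. The cause was not tested. Other pseudocounts, rescaling to a common sum and centring moved 0 of the 64 single E2 values by more than their spread. By the same measure, 49 of the 64 shifted beyond their spread when scaling left out mitochondrial and small RNA genes. A further 5, the single values named above, had passed 0.25 and turned sign, and 10 stayed within their spread. For the length trend these numbers were 12, 4 and 48.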

Other observations

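There were 57 other rows with a UBE2 symbol that were left out by their names or by their annotation as pseudogenes. Among them is UBE2NL, listed at 0 in the 3 libraries. UBE2FP1, a processed pseudogene, was measured at 7.51 FPKM without JG231, 1.87 with 2.5 μM and 0 with 5 μM, on 54, 17 and 0 fragments, while UBE2F was higher at both doses. UBE2MP1 went the way of UBE2M, with 1.02, 5.62 and 7.03 FPKM on 9, 63 and 93 fragments, and 4.81% of the 100-base stretches of UBE2M occur in it. UBE2SP1 had 4.18, 3.52 and 6.52 FPKM. UBE2R2-AS1, antisense to UBE2R2, was listed at 0 in DMSO and at 2.5 μM and at 0.578 FPKM at 5 μM. These rows were picked after their values were seen.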
